A study of Xenopus laevis with 3 samples.

Results

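The thyroid hormone receptors, the deiodinases that activate or inactivate the hormone, and the hormone response gene klf9 were examined in the inner ear of post metamorphic Xenopus laevis juveniles. Thyroid hormone drives amphibian metamorphosis, and in mammals it is required for the maturation of the cochlea. It enters cells through membrane transporters, is converted by deiodinases and binds nuclear receptors that sit on DNA as heterodimers with retinoid X receptors. Receptors without hormone recruit corepressors and receptors with hormone recruit coactivators. Member genes were selected by name, with earlier results of these data known. Probe sets (Xl-PSIDs) with exactly 1 gene symbol in the platform annotation were kept when the symbol, without its homeolog suffix, was thra, thrb, dio2, dio3 or klf9. This gave 8 probe sets for 4 of the 5 genes, among 9240 genes and 15495 probe sets with 1 symbol. No probe set for thrb carried a single symbol, because the only one listed for this receptor is assigned to both of its homeologs.

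The samples were 3 replicate arrays of a single group, and the labels name no treatment, genotype or strain. Replicates 1, 2 and 3 held inner ear RNA pooled from 5, 5 and 6 animals of about 3 months of age, with mean weights of 9, 9.6 and 9.6 g. A difference between arrays is therefore one between pools together with their RNA and array preparation, which this design cannot separate. A value in bulk tissue also cannot separate fewer cells of a type from less RNA per cell. Values are GCRMA intensities in arbitrary units on the log2 scale, given as mean ± SD over n = 3 arrays, and the number of arrays limits their precision. Detection means an average of at least 4 over the arrays, and a one-sided limma test asked whether the mean lay above 4. Levels of different probe sets are not compared with each other, because each responds to its target with its own efficiency. Markers of the inner ear epithelium, among them gata3, sox2, gjb2 and myo6, were detected for 8 of 8 genes. Markers of neurons (6 of 6), skeletal muscle (6 of 6), skin and its glands (4 of 4), erythrocytes (3 of 3) and cartilage and bone (3 of 3) were detected too. Of all named genes 80.2% were detected, so these counts alone do not tell one tissue from another.

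One receptor and 2 deiodinases reached the intensity minimum, and klf9 did not on any probe set with its symbol. By gene, 3 of the 4 measured were detected, against 80.2% of all named genes. The limma test passed 2 of these 4 genes, against 78.5% of all named genes. Of the 8 probe sets, 3 were detected (37.5%), against 64.4% of all 32539 probe sets and 72.8% of those with 1 symbol, and each of these 3 was at or above 4 on every array, as were 63.1% of all. The limma test passed 2 of the 8, for thra and dio3, against 62.2% of all probe sets and 70.8% of those with 1 symbol. The other 5 lay between 1.89 and 2.30 on all arrays. GCRMA puts probe sets without specific signal at a floor near this level, and 9512 of all probe sets (29.2%) had a mean below 2.5. With so few probe sets, the shares describe these genes and are not a test of them.

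**Figure D1:**
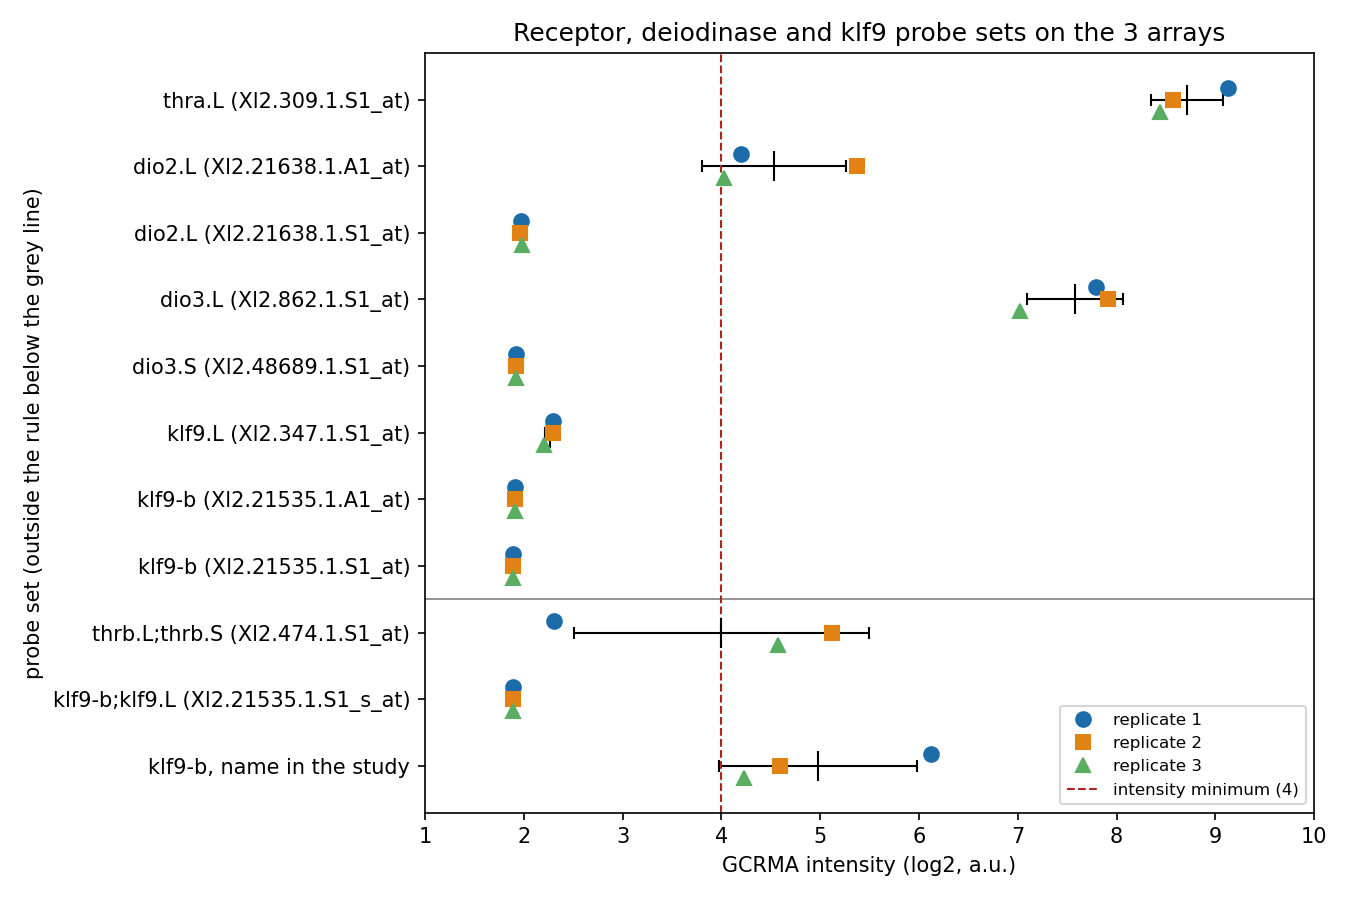
GCRMA intensity (log2, a.u.) of each probe set on replicates 1, 2 and 3 (coloured symbols), with the mean (vertical tick) and SD (bar) over the 3 arrays and the intensity minimum of 4 (dashed line). Only thra.L, 1 of 2 probe sets for dio2.L and dio3.L lie above the minimum among those with 1 symbol, and the 3 rows below the grey line are probe sets outside the naming rule.

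Thyroid hormone receptor alpha, encoded by thra, is the receptor that vertebrate tissues express most widely, and in tadpoles it is present before the hormone rises. The probe set for its L homeolog (Xl2.309.1.S1_at) read 9.12, 8.57 and 8.44 on replicates 1, 2 and 3, a mean of 8.71 ± 0.36. It was highest on replicate 1, and replicates 2 and 3 differed by 0.13. The mean lay 4.71 above the minimum (95% interval of the mean 8.05 to 9.37, limma adjusted p = 0.000412), and the lowest array was still far above it. The range over arrays of 0.68 was matched or exceeded by 19.4% of detected probe sets. No probe set was assigned to the S homeolog, so the 2 copies of thra could not be set side by side.

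Thyroid hormone receptor beta, encoded by thrb, is itself induced by the hormone in tadpole tissues. Its probe set (Xl2.474.1.S1_at) is listed for thrb.L and thrb.S together, so it stood outside the naming rule, and its values were added after they had been seen. It read 2.31, 5.12 and 4.58 on replicates 1, 2 and 3. Replicate 1 was therefore near the floor, while the other arrays were above the minimum. The mean of 4.001 ± 1.49 fell on the minimum itself (95% interval 1.30 to 6.70, limma adjusted p = 0.776), so detection of thrb was not settled at this number of arrays. Without replicate 1 the mean was 4.85, and without replicate 2 or 3 it was 3.44 or 3.71. The range of 2.81 was matched or exceeded by 0.406% of detected probe sets. That share is over detected probe sets of every level and was not counted among those near the minimum.

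Deiodinase type 2, encoded by dio2, converts the prohormone thyroxine to the active hormone triiodothyronine inside cells. Of its 2 probe sets, Xl2.21638.1.A1_at read 4.20, 5.37 and 4.03 on replicates 1, 2 and 3, a mean of 4.53 ± 0.73. All arrays were at or above 4, replicate 2 was highest, and replicates 1 and 3 differed by 0.17. The mean was 0.53 above the minimum, and its 95% interval (3.21 to 5.85) included the minimum (limma adjusted p = 0.209). The second probe set, Xl2.21638.1.S1_at, read 1.97, 1.96 and 1.98 and was at the floor. Both are assigned to dio2.L, so the copy of the gene does not separate them. What the letters A1 and S1 in their names stand for is not stated in the sources available. Among all genes with several probe sets, 1274 of 3936 (32.4%) had probe sets on both sides of the minimum, and among the 3 genes of this set that have several, dio2 and dio3 did.

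Deiodinase type 3, encoded by dio3, removes an inner ring iodine and so inactivates the hormone, and it is also a hormone response gene in tadpoles. The L homeolog (Xl2.862.1.S1_at) read 7.79, 7.92 and 7.02 on replicates 1, 2 and 3, a mean of 7.58 ± 0.49. Replicates 1 and 2 differed by 0.12, and replicate 3 was 0.90 below replicate 2. The mean lay 3.58 above the minimum (95% interval 6.70 to 8.46, limma adjusted p = 0.00151), and the range over arrays was matched or exceeded by 10.9% of detected probe sets. The S homeolog (Xl2.48689.1.S1_at) read 1.92, 1.92 and 1.92 and was at the floor on every array. The L and S probe sets thus fell on opposite sides of the minimum. They have different probes, so the gap between their values is not a measure of how much RNA each copy made.

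The transcription factor gene klf9 is a direct target of the liganded receptor in tadpoles and in mammals. The probe set for klf9.L (Xl2.347.1.S1_at) read 2.30, 2.29 and 2.20, a mean of 2.26 ± 0.05. The 2 probe sets with the symbol klf9-b had means of 1.91 and 1.89, with ranges over arrays of 0.0054 and 0.0039. A further probe set that is listed for both klf9-b and klf9.L had a mean of 1.89. The highest value of these 4 on any array was 2.30.

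Another probe set, which has no symbol in the annotation used here, bears the name klf9-b in the study and was added on that ground. It read 6.12, 4.59 and 4.23 on replicates 1, 2 and 3, a mean of 4.98 ± 1.00. All arrays were above 4 and replicate 1 was 1.89 above replicate 3. The mean did not pass the limma test (95% interval 3.17 to 6.79, adjusted p = 0.134). The range of this probe set was matched or exceeded by 1.51% of detected probe sets, again those of every level. Whether klf9 was called present therefore turned on which probe set carried its name. The Entrez entry of klf9-b was not matched in the RefSeq table used here, where klf9-b is listed as a synonym of klf9.L.

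Variation between the arrays was then compared over the detected members. None of the 3 detected probe sets within the naming rule had a range of 1.5 or more, against 2.89% of detected probe sets and 2.36% of all. This is the difference minimum of the study, which applied it between stage averages and not between single arrays. The median of their ranges was 0.90, against 0.37 over all detected probe sets. Probe sets were not matched for level here. The means of dio2.L (4.53), thrb (4.001) and the klf9-b probe set of the study (4.98) were low, so their ranges are not shown to be unusual for that level. The probe set for both thrb homeologs and the one named klf9-b in the study, both outside the rule, exceeded 1.5. Across all probe sets, 416, 374 and 339 differed by 1.5 or more between replicates 1 and 2, 1 and 3, and 2 and 3.

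**Figure D2:**
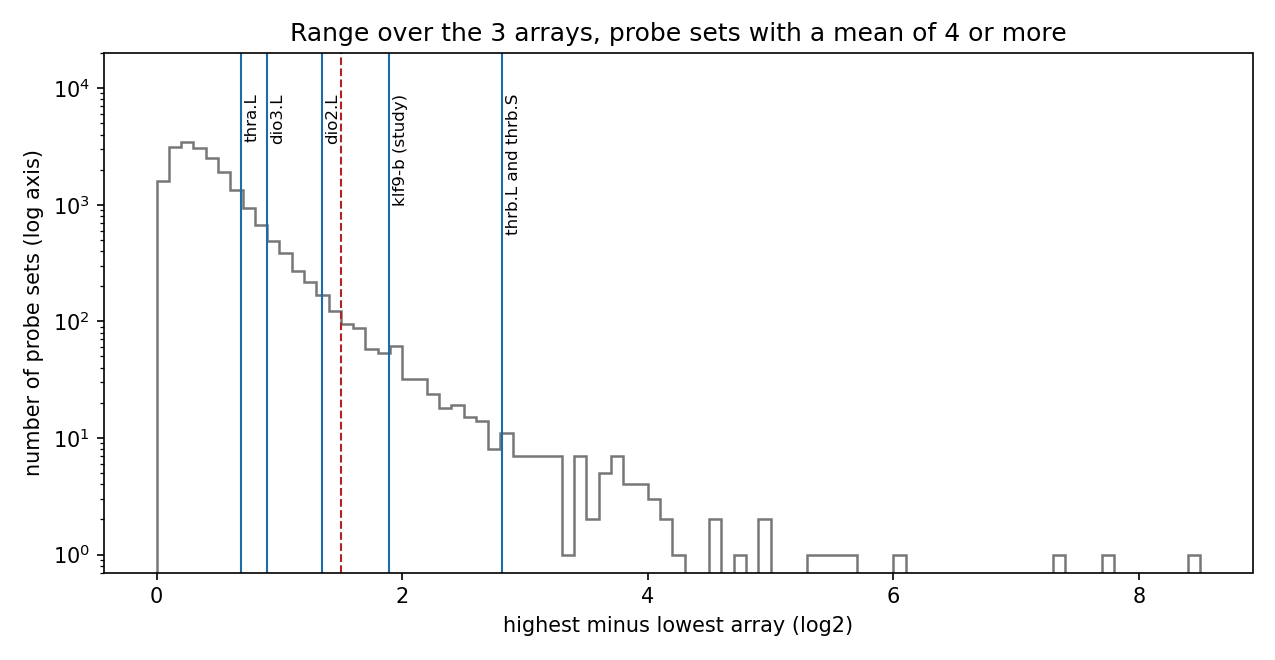
Number of detected probe sets (log axis) by the highest minus the lowest of the 3 arrays (log2, grey outline), with the named probe sets as vertical lines and the difference minimum of 1.5 dashed. The lines for thra.L (0.68), dio3.L (0.90) and dio2.L (1.34) lie below the dashed line, and those for klf9-b of the study (1.89) and for thrb (2.81) lie above it.

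All 3 detected members and the klf9-b probe set of the study were lowest on replicate 3, with thra.L and the klf9-b probe set highest on replicate 1 and dio2.L and dio3.L on replicate 2. The share of all detected probe sets lowest on replicate 3 was not counted, so whether this order sets the members apart is not known. For thra.L, replicates 2 and 3 differed by only 0.13. Relative to their own means, thra.L was 0.41 higher and the klf9-b probe set of the study 1.14 higher on replicate 1, where thrb was at -1.69. On replicate 2, dio2.L was 0.84 higher, thrb 1.12 higher and dio3.L 0.34 higher. On replicate 3, thra.L was at -0.27, dio2.L at -0.51, dio3.L at -0.56 and the klf9-b probe set of the study at -0.75, while thrb was at 0.58. With a single pool per array these deviations carry no test.

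Markers of other tissues also moved between the arrays. The neuron markers had a median deviation of 0.63 on replicate 1 and -0.65 on replicate 3, with 5 of 6 highest on replicate 1 and 6 of 6 lowest on replicate 3, the same arrays on which thra.L and the klf9-b probe set of the study were highest and lowest. The summed level of these neuron markers was 14.92, 14.44 and 13.92 (log2) on replicates 1, 2 and 3. Both myelin markers measured were also highest on replicate 1, with median deviations of 0.12, -0.02 and -0.10 and a summed level of 15.64, 15.48 and 15.43. The share of all detected probe sets with this order was not counted. Skin and skin gland markers were at 0.51, 0.96 and -1.21, with 4 of 4 highest on replicate 2 and 3 of 4 lowest on replicate 3, the arrays on which dio2.L and dio3.L were highest and lowest, and their summed level, set mainly by krt19, was 15.42, 15.44 and 15.32. By gene, the skin markers on replicates 1, 2 and 3 were xt6l (10.35, 10.40 and 7.22), levi.2 (8.34, 8.41 and 5.25), krt19 (15.36, 15.38 and 15.31) and krt12 (3.66, 5.03 and 3.83). The probe set for dio2.L read 4.20, 5.37 and 4.03, and both it and krt12 were near the minimum. Cartilage and bone markers were highest on replicate 1 for 2 of 3 genes and lowest on replicate 3 for 3 of 3. Their median deviations were 0.06, 0.02 and -0.13, and their summed level was 14.50, 14.29 and 14.12. Skeletal muscle markers were at -0.42, -0.72 and 1.03, with 4 of 6 highest on replicate 3, and a summed level of 12.76, 12.58 and 13.58. Both pigment cell markers measured were lowest on replicate 1 and highest on replicate 2, as was thrb, with a summed level of 12.52, 12.98 and 12.85. Inner ear epithelium markers stayed within 0.16 of 0 at the median, although calb1 read 9.35, 7.58 and 6.96. The study measured RNA integrity directly and reports that every replicate met its minimum score. A rough further guide to RNA quality on the arrays is how far the 5′ end of a control transcript lies below its 3′ end. For ef1a the gap was -3.13, -3 and -3.87 on replicates 1, 2 and 3, with the 5′ end weakest on replicate 3, and gapdh showed the same order of sizes (-1.13, -1.04 and -1.36). For actin the gap was -12.63, -12.62 and -12.57, smallest on replicate 3. Replicate 3 was also the array on which all 3 detected members were lowest, an order whose share among all detected probe sets was not counted. The part of these tissues and of RNA quality in the values of the members was not tested.

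**Figure D3:**
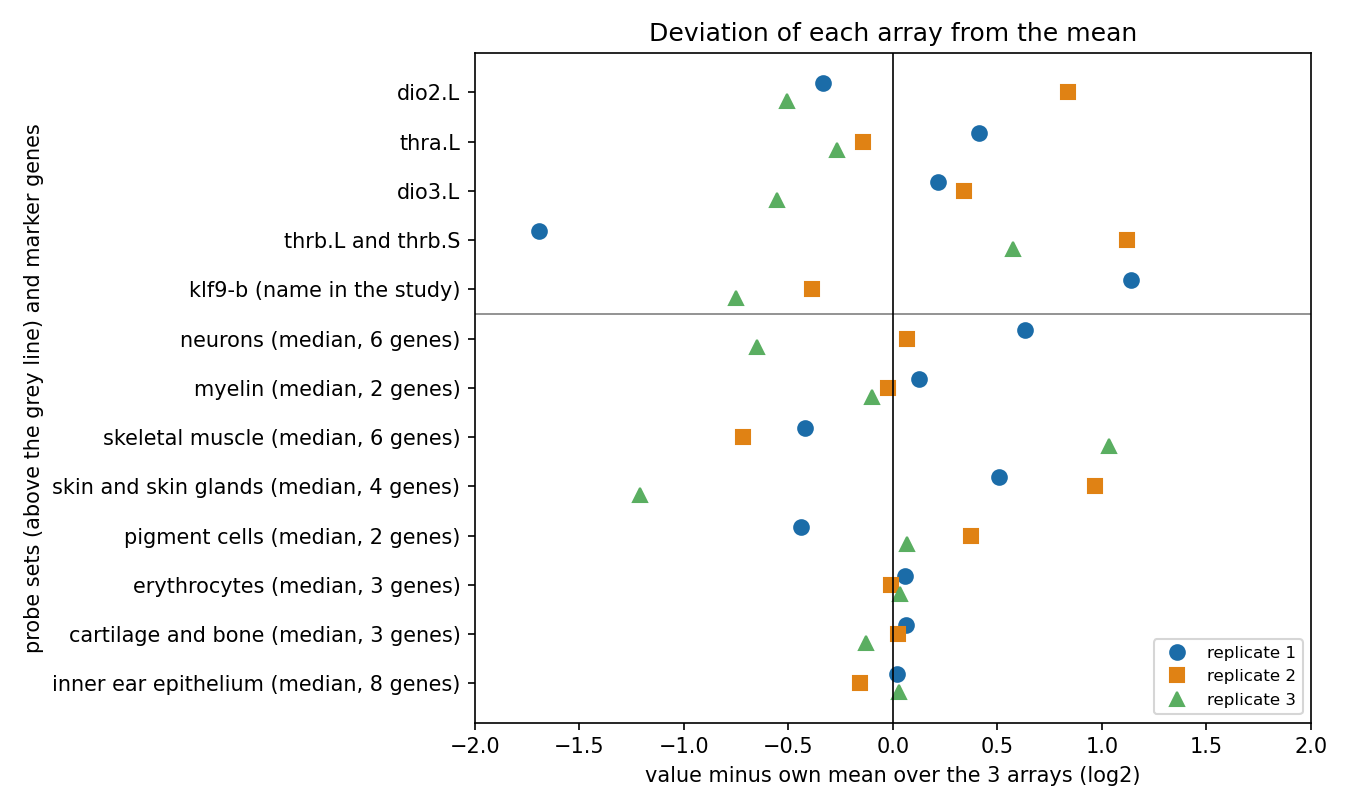
Value on replicates 1, 2 and 3 (coloured symbols) minus the mean over the 3 arrays (log2), for the 5 probe sets above the grey line and, below it, as the median over marker genes of each cell type. The neuron markers and thra.L lie highest on replicate 1, thrb lies lowest there at -1.69, and dio3.L and the skin markers lie lowest on replicate 3.

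The probe sets whose deviations over the 3 arrays were closest to those of each detected member were identified by root mean square difference. For thra.L they were mrps35.L (11.50, 10.95 and 10.84, a difference of 0.010), rsf1.S (0.011) and ewsr1.L (0.013). For dio3.L they were nr2f5.S (5.50, 5.60 and 4.72, a difference of 0.0079), mrps2.L (0.0084) and ism1.L (0.0090). For dio2.L they were selenbp1.L (8.26, 9.44 and 8.07, a difference of 0.012), med8.L (0.035) and tac1.L (0.055). Among 11283 detected probe sets with 1 symbol, 290 lay within 0.1 of thra.L, 146 of dio3.L and 15 of dio2.L. Over only 3 arrays, close matches among this many probe sets arise readily, so they are no evidence of shared regulation. The median range of all detected probe sets was 0.37, so a fixed bound leaves fewer neighbours to a member with a wider range.

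The other genes of the pathway were counted from lists arranged by role. Of 78 entries 51 were measured, and 37 of these had a detected probe set (72.5%), against 80.2% of all named genes. The limma test also passed 37, where it passed 78.5% of all named genes. A gene is given below by its probe set of highest mean.

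The genes measured from the list for the thyroid gland and pituitary were at the floor. Of these 0 of 5 were detected by the mean or by limma, against 80.2% and 78.5% of all named genes. Among the 5 were the iodide transporter slc5a5 (1.94 ± 0.00), the iodotyrosine deiodinase iyd (1.90 ± 0.00) and the glycoprotein hormone subunit cga (1.96 ± 0.00). The limma test asked only whether a mean lay above the intensity minimum, and all 5 means lay below it. None of the 5 could therefore pass, at an unadjusted p below 0.05 either, so the test adds nothing to the count by the mean. The defining thyroid genes tg, tpo and tshr had no probe set under these symbols. The amino acid transporters slc7a5 (12.66 ± 0.08) and slc7a8 (13.29 ± 0.11), which also carry thyroid hormone when paired with slc3a2 (13.78 ± 0.05), were detected together with that partner, as was the cytosolic hormone binding protein crym (12.17 ± 0.21). The plasma carrier ttr (1.99 ± 0.00) was not.

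Deiodinases are selenoproteins, and genes for selenoprotein synthesis and for the turnover of deiodinase type 2 were detected for 6 of 7, against 80.2% of all named genes. The same list holds dio1. This deiodinase, which acts on either ring of the hormone, read 7.20, 7.79 and 7.45 (limma adjusted p = 0.000516). It was therefore detected on every array, highest on replicate 2 and lowest on replicate 1. The selenocysteine synthase sepsecs (9.08 ± 0.20), the kinase pstk (7.63 ± 0.12), the ubiquitin ligase adaptor wsb1 (13.87 ± 0.13) and the deubiquitinase usp20 (11.23 ± 0.23) were detected. The selenocysteine elongation factor eefsec read 3.13, 1.98 and 1.92 and was not.

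Partners and cofactors of the receptors were detected for 12 of 14 genes (85.7%), a share near the 80.2% of all named genes. The retinoid X receptors rxra (10.68 ± 0.14), rxrb (13.09 ± 0.06) and rxrg (7.64 ± 0.42) all passed. Coactivators were detected for 5 of 6 genes, including the histone acetyltransferase crebbp (8.14 ± 0.09), the arginine methyltransferase prmt1 (13.40 ± 0.10) and the steroid receptor coactivator ncoa3 (9.72 ± 0.43), but not the mediator subunit med1 (1.91 ± 0.00). Corepressors were detected for 4 of 5, including ncor1 (11.91 ± 0.16), gps2 (11.37 ± 0.05) and tbl1xr1 (4.67 ± 0.02). The probe set of highest mean for the deacetylase hdac3, the enzyme of the ncor1 complex, read 2.09, 4.73 and 3.51 on replicates 1, 2 and 3. It was lowest on replicate 1 and highest on replicate 2, as was the probe set for thrb. Other pathway genes, among them dio1, ncoa3 and crhbp, had this order too, and 3 arrays allow few orders.

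**Figure D4:**
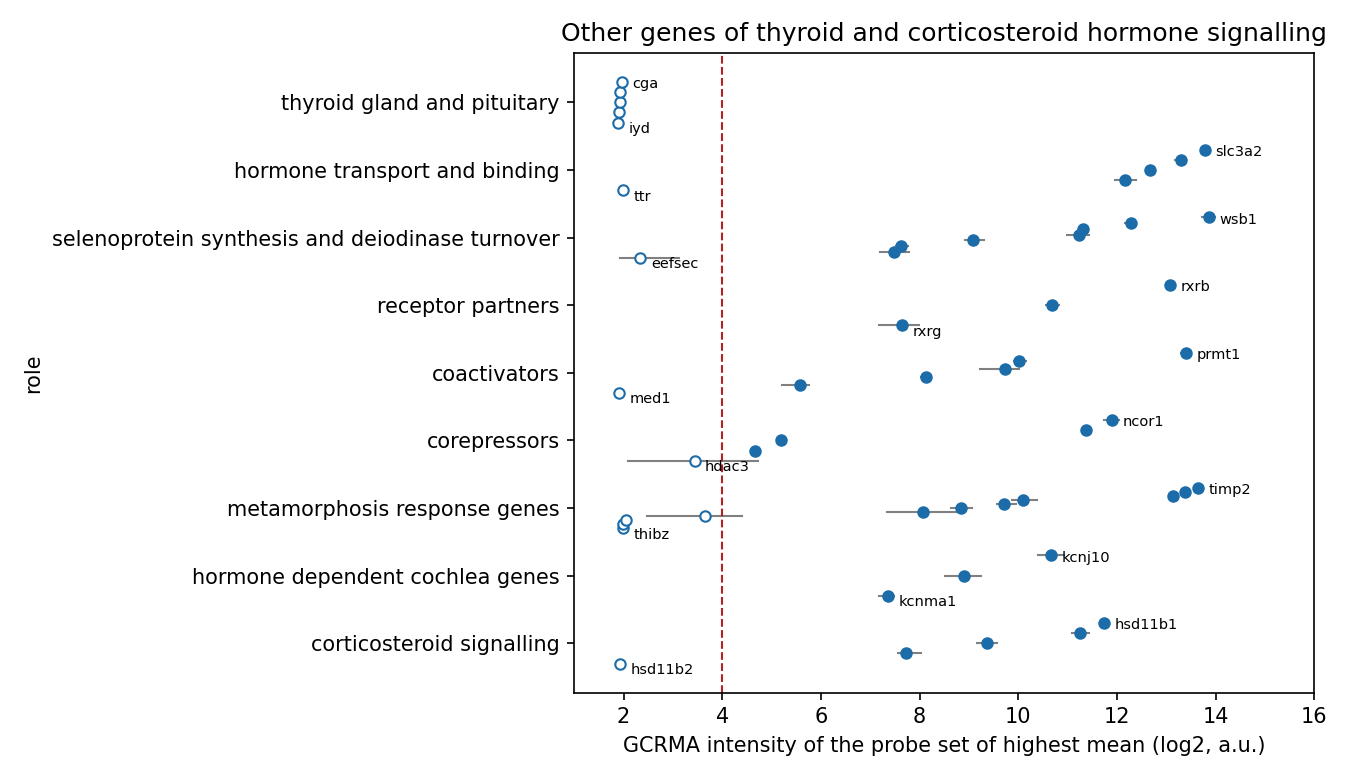
Mean GCRMA intensity (log2, a.u.) of the probe set of highest mean for 51 genes, arranged by role, with the lowest to highest array as a grey line, the minimum of 4 dashed and filled symbols for genes that passed the limma test on at least 1 probe set. Of these genes 37 are filled, and the 5 of the thyroid gland and pituitary are all at the floor.

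Of 11 genes measured that the hormone is known to raise in Xenopus tadpoles, 7 were detected (63.6%), against 80.2% of all named genes. The leucine zipper factor thibz (1.99 ± 0.00) and the stromelysin mmp11 (1.99 ± 0.00), induced during metamorphosis, were at the floor, as was the morphogen shh (2.06 ± 0.00), and the collagenase mmp13 read 4.09, 2.47 and 4.41. In contrast, the gelatinases mmp2 (13.37 ± 0.06) and mmp9.1 (9.72 ± 0.20), the membrane protease mmp14 (13.15 ± 0.01), the fibroblast protease fap (8.85 ± 0.21) and the inhibitor timp2 (13.64 ± 0.05) were detected. The corticotropin releasing hormone binding protein crhbp read 7.33, 8.77 and 8.12 and was detected, with replicate 1 lowest. Many of these genes are also expressed without the hormone in connective tissue, so their detection is not a measure of hormone action.

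Of the genes known in mouse to depend on thyroid hormone in the cochlea, 3 were measured and all were detected: the potassium channels kcnj10 (10.67 ± 0.27) and kcnma1 (7.36 ± 0.16) and a copy of the tectorial membrane glycoprotein, tecta.2 (8.90 ± 0.36). Since 80.2% of all named genes were detected, 3 detected genes do not set this list apart. Corticosteroids act together with thyroid hormone in metamorphosis, and 4 of 5 of their genes were detected (80%), the share of all named genes (80.2%). The receptors nr3c1 (9.37 ± 0.21) and nr3c2 (11.25 ± 0.18) and the enzyme hsd11b1 (11.75 ± 0.04), which regenerates active corticosteroid, passed, while hsd11b2 (1.94 ± 0.02), which inactivates it, was at the floor.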

How the data were processed

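RNA of 3 pools was amplified and hybridised by the authors to Affymetrix GeneChip arrays for Xenopus laevis. The deposited log2 values come from GCRMA in JMP Genomics, a method that models background by the base content of each probe and normalizes between arrays. Whether larval arrays entered that step is not stated in the sources used. Differences between values that all lie at the floor are understated. A probe set near the floor on only some arrays can show a wide range, as thrb did (2.31, 5.12 and 4.58). The table held 32635 probe sets, of which 96 controls were left out, leaving 32539. Of these, 15495 had 1 symbol, 279 had several and 16765 had no row in the platform annotation. For 15384 the Entrez identifier was matched in the RefSeq table of Xenopus laevis. No genome build is named for the array values, so no coordinates are given, and no sequences are printed.

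Members, lists and tests were chosen with earlier results of these data known. The minimum of 4 and the difference of 1.5 are numbers taken from the study, used here for other measures. In the study 4 was an added criterion for calling a probe set upregulated, and 1.5 applied between stages together with a q-value limit. Detection was tested with limma 3.58.1 in R 4.3.3 (intercept model on value minus 4, moderated variance, one-sided, Benjamini-Hochberg over 32539 probe sets, threshold 0.05). Intervals are 95% limma intervals. On simulated data of 32539 probe sets 77%, 93% and 98.5% of probe sets placed 0.5, 1 and 2 over the minimum were called, and 5.5% of those placed on it. The placed probe sets took their SDs at random from all detected probe sets, whose median range over arrays was 0.37. The probe sets for dio2.L, klf9-b of the study and thrb had wider ranges (1.34, 1.89 and 2.81), so these rates do not hold for them. Named genes were all members, probe sets the study names as members, a set of genes chosen per list, and the highest and lowest of each list. Others, such as gps2, tbl1xr1, sepsecs, pstk, usp20, slc5a5, shh, mmp2, mmp14, crhbp and nr3c2, were chosen after their values were seen. Numbered copies of a gene were joined in lists. No comparison between stages was made, because the arrays form 1 group. P-values reflect the spread between 3 arrays, each of a single pool prepared once.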

Additional observations from a re-analysis of the deposited data

How the results depend on the processing

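Counts over the 8 probe sets changed little. At a minimum of 3, 5 or 6 the mean was reached by 3, 2 and 2 probe sets, and limma passed 3, 2 and 2. Leaving out replicates 1, 2 or 3 kept 3 probe sets detected by the mean and 2 by limma, as did quantile normalization, updated symbols and leaving out probe sets that can match several transcripts. None of the 8 is of that last kind, so under it the count by the mean could not change. For thra.L the limma adjusted p ranged from 8.62e-06 to 0.0093 and for dio3.L from 5.66e-05 to 0.0176 over the alternatives, so both calls held in all of them. The call for dio2.L did not: its mean of 4.53 lies below minimums of 5 and 6, and it passed limma at a minimum of 3 (adjusted p = 0.0275). The klf9-b probe set of the study, at 4.98, lies below minimums of 5 and 6, and it passed limma at a minimum of 3 (adjusted p = 0.0315) and when only probe sets with a mean of 3 or more entered the fit (adjusted p = 0.0448), against 0.134 with all. The thrb probe set, at 4.001, lies below minimums of 5 and 6, and with 1 replicate left out its mean ranged from 3.44 to 4.85. The count of probe sets with a range at or above the difference minimum was 0, became 1 at a difference minimum of 1 (dio2.L), and became 1 when probe sets of both homeologs or the klf9-b probe set of the study were added, both chosen after seeing the data. With any 1 replicate left out it stayed at 0, as it had to, because leaving out an array cannot widen a range. Pathway genes detected by the mean numbered 34 to 39. No paired analysis was possible because all arrays belong to 1 group.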
